A study of Homo sapiens with 3 samples.

Results

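The 9 genes described here bind, take up, convert or sense retinoids, the group of molecules made from vitamin A. They are CRABP1, CRABP2, STRA6, RBP4, RARA, RARB, RARG, RXRA and ALDH1A1, which were chosen by name, with all their probes, from the 27274 gene names on the array. RNA came from HepG2 cells, an established human hepatocellular carcinoma line with wild-type p53, which were treated for 30 h. There was 1 array for each of 3 conditions, namely control cells (0 μM etoposide, called untreated in the labels and DMSO in the tables of the study), cells given 10 μM etoposide (the low dose) and cells given 100 μM etoposide (the high dose). Etoposide is an anticancer drug that stops topoisomerase II on DNA and leaves double-strand breaks. The study used the low dose as a condition that leads mainly to senescence and the high dose as one that leads mainly to apoptosis. With 1 array per condition there is no replicate, no test between conditions and no p-value, and every value below describes these 3 arrays. Dose, culture, RNA preparation and array cannot be told apart. The members were proposed with the values of these arrays in view, and CRABP2 is one of the genes that the study selected on them, so the differences of the members are given as a description and support nothing beyond it. Only the arrays were analysed here. The study also measured its selected genes by qPCR, CRABP2 included, and those values are not reported here. The array difference of CRABP2 should therefore not be read as settled.

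Retinol travels in blood on RBP4, a carrier that hepatocytes secrete, and STRA6 is the membrane protein that binds RBP4 and lets retinol into cells. Inside the cell retinol is oxidized to retinal and then to retinoic acid, the second step being carried out by aldehyde dehydrogenases such as ALDH1A1. CRABP1 and CRABP2 hold retinoic acid in the cytosol, and CRABP2 hands it to the nuclear receptors RARA, RARB and RARG, which bind DNA as pairs with a retinoid X receptor such as RXRA. In liver, hepatocytes are known for making RBP4 and stellate cells for storing retinol as esters.

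The 9 genes were read by 14 probes of 60 bases, each spotted once. The probes of the 2 genes with the largest differences are shown in part, as stretches of 30 bases, because the STRA6 probes belong to different transcripts of the gene. Capitals mark the hexamer AATAAA, the usual polyadenylation signal, which was searched on the strand of the probe and is held by 7.67% of all probes of the array. Coordinates are on hg18, as the files give them. The first STRA6 probe (A_33_P3307495) is listed for NM_001142617, NM_001142618, NM_001142619 and NM_022369, and the second (A_33_P3307500) for NM_001142620 alone. The CRABP2 probe (A_23_P115064, for NM_001878) does not hold the hexamer.
STRA6 first probe, chr15:72258865-72258894, minus strand: agtgtgttccctgcAATAAActtgttcctg
STRA6 second probe, chr15:72273790-72273819, minus strand: catactaagctctcAATAAAagtatattga
CRABP2 probe, chr1:154936203-154936232, minus strand: gagcccagatcacccattccgggttcactc

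Signals are the processed intensities of the scanner software, from which it had removed a background surface fitted over the array, before any scaling between arrays. The software's own call says whether a spot is well above background, and a spot that it could not tell from background carries a small surrogate value in place of a measured one. The call was passed by 58.9% of all probes for control, 58.1% for 10 μM and 59.1% for 100 μM etoposide. Counts of listed genes that passed it stand beside these shares. Ratios were taken on the log2 scale after each array was set relative to its 75th percentile over all probes, where the signal was 514 for control, 537 for 10 μM and 433 for 100 μM etoposide. Where only the brighter array was well above background, the dimmer one was replaced, if below it, by the array's lowest signal with that call (19.5, 22.7 and 21.6 in the same order), and the ratio is a bound. The only error that a single array gives is the spread between spots of a probe. It was read from the 50 repeated probes nearest in signal and had an SD of 0.23 to 0.26 on the log2 scale at a signal of 30 and of 0.05 to 0.06 at 500. For a ratio, the SDs of both its arrays were combined as the root of the sum of their squares. A ratio larger than 2 of these combined SDs is called larger than the spread between spots, which does not cover cultures or RNA preparations. No spot was saturated.

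All 8 markers of hepatocytes and HepG2 cells (ALB, AFP, APOA1, APOB, SERPINA1, FGB, TF and HNF4A) were well above background on all 3 arrays. Of 5 markers of stellate cells and fibroblasts, only DES passed the background call on every array, and the collagens COL1A1, COL1A2 and COL3A1 passed it on none. The summed signal of these 5 markers ran from 297 to 369.8. That of 4 endothelial markers ran from 359.8 to 535, with 2 of the 4 well above background on all arrays and KDR on none. The summed signal of 4 leukocyte markers, of which CD163 was not well above background on any array, was 829 for control, 1354 for 10 μM and 2193 for 100 μM. CD14 was higher at each dose (521, 1184 and 1847), whereas PTPRC (257, 131 and 288) and CD3E (46.8, 34.6 and 52.9) were lower at the low dose. The cells were an established line, and why markers of other cell types gave signal was not tested. The summed signal of the hepatocyte markers ran from 233949 to 254585, but its members differed in direction. The log2 ratio over control at the low and the high dose was -0.74 and -0.52 for ALB, -0.80 and 0.33 for HNF4A, and 0.48 and 0.84 for SERPINA1.

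At the low dose, CRABP2 and STRA6 were the members with large differences from control cells, and both were higher. Of the 8 members with a ratio at the low dose, 2 were past 2-fold higher than control and 0 past 2-fold lower, beside 3.37% and 1.57% of the 16714 genes read in this comparison. At the high dose, 1 member was more than 2-fold higher than control and 0 were more than 2-fold lower, beside 6.72% and 3.63% of 16977 genes. Between the doses, 2 members were past 2-fold in favour of the low dose and 0 in favour of the high dose, beside 3.64% and 3.93% of 16791 genes. The other 6 members with a ratio stayed within 2-fold in every comparison. RARB had no ratio, because neither of its probes was well above background on any array.

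**Figure D1:**
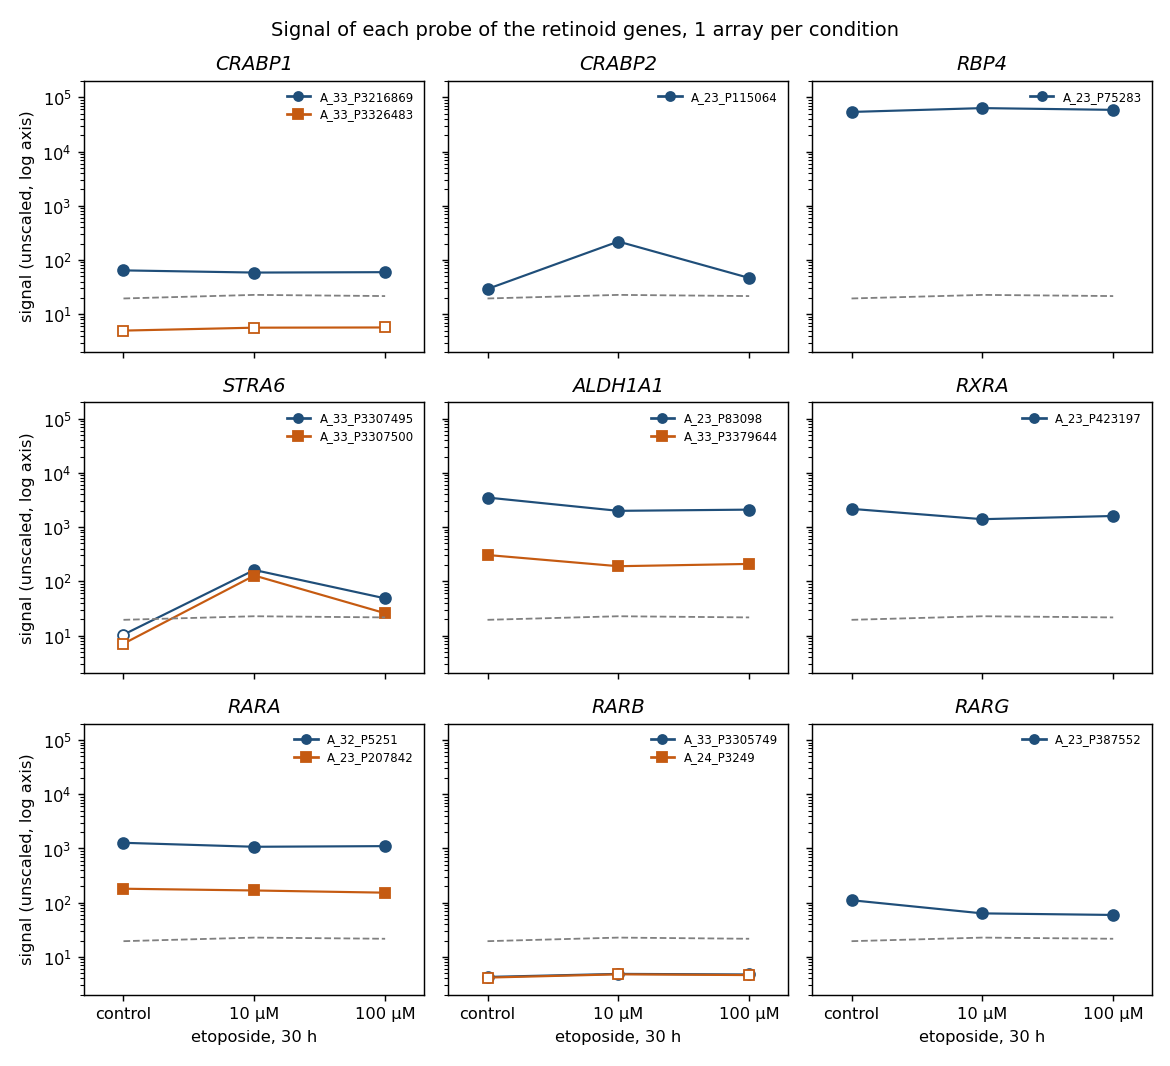
Signal of each probe of the 9 genes (unscaled, log axis) in control cells and at 10 and 100 μM etoposide, 1 array per condition, with filled symbols well above background, open symbols not, and a dashed line at the lowest signal well above background on each array. STRA6 lies under the line in control cells and reaches 162 and 128 at the low dose, CRABP2 peaks at 219, and both RARB probes lie together near 4 to 5 throughout.

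STRA6, the RBP4 receptor, passed the background call with etoposide and not without it. Its first probe read 10.4 without etoposide, 162 with 10 μM and 48.5 with 100 μM. The second probe, of the other transcript, read 7.07, 128 and 25.8 in the same order. Both probes were well above background at each dose of etoposide and not in control cells, so the order was low dose, high dose, control for both. Over control, the first probe was higher by at least 7.95-fold for 10 μM and at least 2.95-fold for 100 μM. For the second probe these bounds were 6.29-fold and 1.57-fold. Its high-dose signal lay close to the lowest signal called well above background on that array (21.6). The bound at the high dose, 0.65 on the log2 scale, fell to 0.21 in another setting. Between the doses, where both arrays measured it, the first probe was 2.69-fold higher at the low dose (log2 ratio 1.43, SD between spots 0.16). The second probe was 3.99-fold higher (SD between spots 0.24 on the log2 scale). By their brightest probe, 31 genes had a larger log2 ratio or bound than STRA6 for 10 μM and 321 for 100 μM. The true place of STRA6 is not known, since its own ratios and those of other genes dim in control cells are lower bounds.

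CRABP2, the carrier that delivers retinoic acid to its receptors, had the same order of conditions. Its single probe read 29.2 in control cells, 219 with 10 μM and 46.6 with 100 μM, and was well above background on all 3 arrays. The control signal lay close to the lowest signal called well above background on that array. Its signal exceeded control 7.16-fold at the low dose (log2 ratio 2.84, SD between spots 0.25) and 1.89-fold at the high dose (log2 ratio 0.92, SD 0.29). The low dose exceeded the high dose 3.78-fold (log2 ratio 1.92, SD 0.18). As processed above, each of these differences was larger than the spread between spots. At the low dose, 42 of 16714 genes had a larger log2 ratio or lower bound over control. All of these are array values, and the qPCR of CRABP2 in the study is not reported here.

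With normexp background correction, whose added offset compresses ratios of dim probes, the log2 ratio over control at the low dose was 1.57 for CRABP2, and the bounds were 1.47 for the first and 1.25 for the second STRA6 probe. The STRA6 ratio between the doses then fell under 2-fold at both probes, at 0.65 and 0.70 on the log2 scale, while that of CRABP2 was 1.02. The CRABP2 log2 ratio over control at the high dose was 0.55 with this correction and 0.58 in another setting. Both lie at about 2 SDs between spots, so this difference is not secure.

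CRABP1, the paralog of CRABP2 that also binds retinoic acid in the cytosol, did not show this pattern. Its brighter probe (A_33_P3216869) read 64.3 in control cells, 58.6 with 10 μM and 59.6 with 100 μM. The log2 ratio was -0.19 at the low dose (SD between spots 0.17), 0.14 at the high dose (SD 0.17) and -0.33 between the doses (SD 0.17). All 3 differences were within 2 SDs of the spread between spots, so the order of the conditions cannot be given. The second CRABP1 probe (A_33_P3326483) was not well above background on any array, and its listed signals of 4.98 to 5.69 are surrogate values.

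RBP4, the plasma carrier of retinol, gave a strong signal in every condition. It read 53806 in control cells, 63330 with 10 μM and 58806 with 100 μM. The log2 ratio over control was 0.17 for 10 μM and 0.38 for 100 μM (SD between spots 0.06 for both), and it was above 0 in all 10 settings tried. Here and below, the 10 settings include the main one. They also include the deposited series values, which equal the main intensities and had to give the same result. The difference between the doses, -0.20 on the log2 scale, changed sign under other scalings and ran from -0.27 to 0.11.

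**Figure D2:**
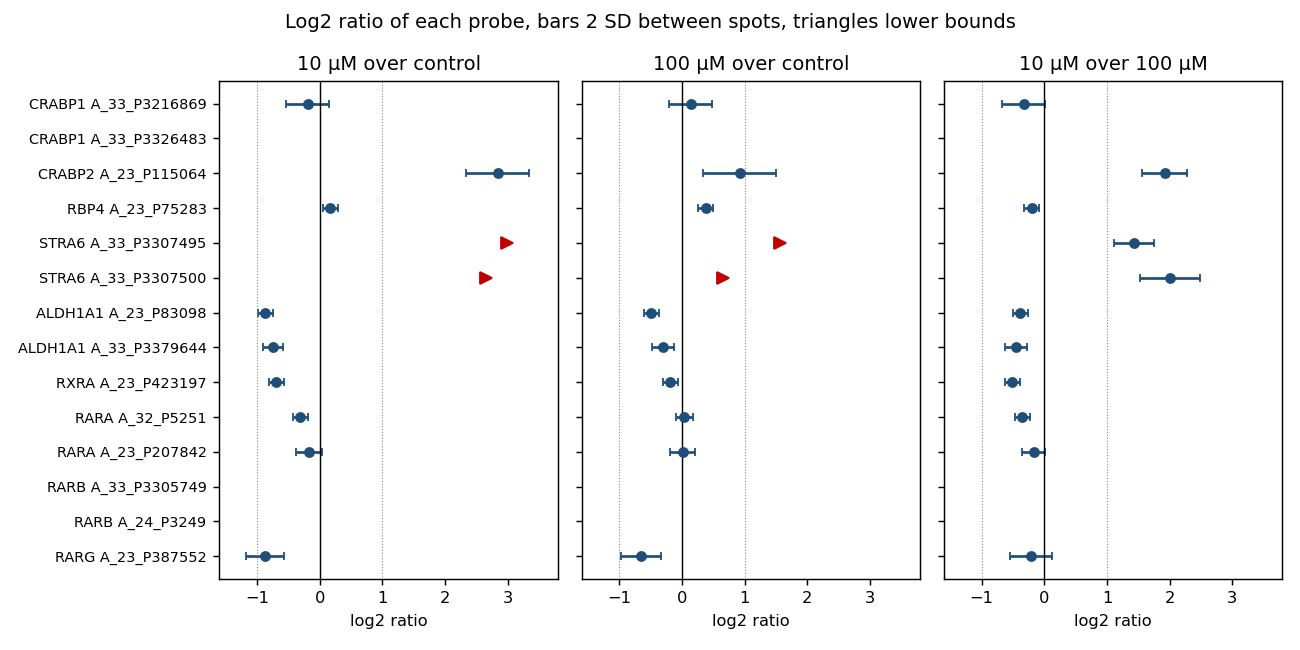
Log2 ratio of each probe in the 3 comparisons, with circles for ratios measured on both arrays and triangles for lower bounds. Bars are 2 SD between spots, combined over both arrays of the ratio. No symbol is given where neither array was well above background. The CRABP2 and STRA6 probes lie to the right of 0 in all 3 panels, and the ALDH1A1, RXRA and RARG probes lie to the left of 0 at both doses over control.

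ALDH1A1, which oxidizes retinal to retinoic acid and is abundant in liver, was lower at both doses, at both of its probes. The brighter probe (A_23_P83098) read 3510 in control cells, 1997 with 10 μM and 2102 with 100 μM. The second probe (A_33_P3379644), which lies at another place in the gene, read 306, 190.1 and 209.5. The brighter probe was at 54.5% of control at the low dose (log2 ratio -0.87, SD between spots 0.06) and at 71.2% at the high dose (log2 ratio -0.49, SD 0.06). For the second probe these were 59.5% and 81.3%. The order was control, high dose, low dose at both probes, each step was larger than the spread between spots, and the ratio over control stayed below 0 in all 10 settings. The step between the doses depended on the scaling, with log2 ratios of -0.38 and -0.45 at the brighter and the second probe but -0.07 and -0.14 without scaling, within 2 SDs at both. The brighter probe stood near the 2-fold threshold, with 381 of 16714 genes further below control at the low dose by their ratio or bound.

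The receptors were lower or near control. RXRA, the retinoid X receptor with which the retinoic acid receptors pair, read 2172 in control cells, 1401 with 10 μM and 1605 with 100 μM. Its log2 ratio over control was -0.69 for 10 μM and -0.19 for 100 μM (SD between spots 0.06 for both), and the log2 ratio between the doses was -0.51 (SD 0.06). The order was control, high dose, low dose, and no setting turned any of these signs.

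RARG, one of the retinoic acid receptors, read 111 in control cells, 63.5 with 10 μM and 59.4 with 100 μM. It was 1.83-fold lower than control at the low dose (log2 ratio -0.87, SD between spots 0.15) and 1.58-fold lower at the high dose (log2 ratio -0.66, SD 0.16). The doses did not differ beyond the spread between spots (log2 ratio -0.21, SD 0.17). With normexp background correction the log2 ratios over control were nearer 0, at -0.40 for the low and -0.25 for the high dose. Control was the highest of the 3 conditions in all 10 settings, but by a margin that depended on the background correction. The doses have no order.

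RARA, the receptor that is widely expressed across tissues, differed least from control among the receptors that were measured. Its brighter probe (A_32_P5251) read 1273 in control cells, 1075 with 10 μM and 1105 with 100 μM, and the other (A_23_P207842) read 181, 168 and 153. The brighter probe was lower at the low dose (log2 ratio -0.31, SD between spots 0.06), whereas its log2 ratio at the high dose was 0.04 (SD 0.07), which is within the spread between spots. At the other probe none of the differences was larger than 2 SDs, with log2 ratios of -0.17 for 10 μM and 0.01 for 100 μM. The sign at the high dose changed with the scaling at both probes.

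RARB, a receptor gene that is itself switched on by retinoic acid, was not well above background. One probe (A_33_P3305749) is listed at 4.27 for control, 4.86 for 10 μM and 4.74 for 100 μM, and the other (A_24_P3249) at 4.15, 4.77 and 4.62. All 6 are surrogate values, so the small steps between them are not measurements. No fold change can be given, and a level under the limit of the array cannot be told from none. One of the 21 promoter windows that RefSeq gives for the 9 genes (250 bases before to 50 after a transcript start, GRCh38.p14, all 9 genes matched by symbol) held a retinoid response element of the DR5 kind, and it was a window of RARB. DR5 stands for a motif, GGTTCA or a close form of it, that occurs as a pair in direct repeat with 5 bases between, each copy being A or G, then G, then G or T, then TCA. The stretch around the match is printed because it is the element class through which retinoic acid receptors act, and the capitals mark both copies with the bases between them.
RARB, chr3:25428200-25428236, plus strand, GRCh38.p14: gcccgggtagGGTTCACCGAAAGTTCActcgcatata

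The match starts 53 bases before the transcript start (position -53). On both strands of all 35116 windows, 0.0883% held a DR5, 0.131% a DR1 (1 base between the copies) and 0.0399% a DR2 (2 bases between). A pair of p53 motifs, each of 3 purines, C, 2 bases of A or T, G and 3 pyrimidines, with up to 13 bases between, was held by 0.0285%. None of the windows of the other 8 genes held a DR1, DR2, DR5 or p53 pair, which says only that these letters are not in these windows.

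Across the members, the median log2 ratio at the low dose was -0.25, with STRA6 at its bound, beside -0.04 for all genes. At the high dose it was 0.09, beside 0.09 for all genes. Between the doses it was -0.27, beside -0.11. Of the 8 members, 5 had a log2 ratio below 0 at the low dose, where 54.6% of all genes did, and 3 of 8 at the high dose, where 42.5% did. The scaling moved these medians, since that of all genes at the high dose over control ran from -0.19 with median scaling to 0.16 with the percentile taken over all spots. Relative to the median of all genes in the same comparison, CRABP2 stood at 2.88 at the low and 0.83 at the high dose, ALDH1A1 at -0.84 and -0.58, RARG at -0.83 and -0.75, and RXRA at -0.66 and -0.28.

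**Figure D3:**
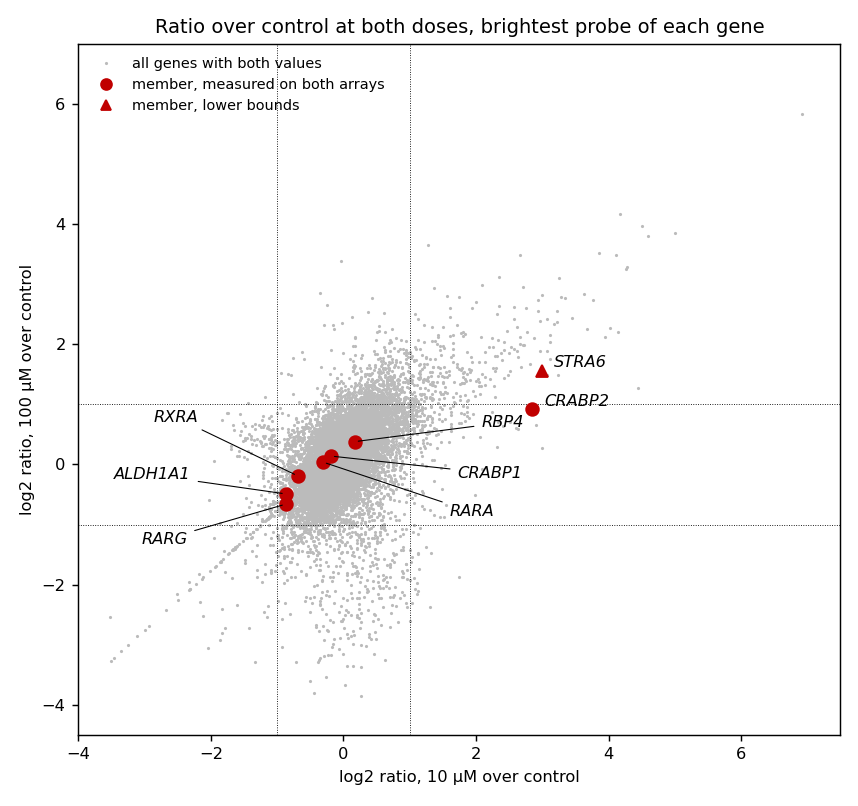
Log2 ratio over control at 100 μM against that at 10 μM for the brightest probe of each gene, with all genes in gray, members measured on both arrays as red circles, STRA6 as a red triangle because both its ratios are lower bounds, and dotted lines at 2-fold. CRABP2 and STRA6 lie to the right of the 2-fold line for 10 μM at 2.84 and 2.99, and the other 6 members lie inside the dotted lines.

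The gene with the pair of ratios over control nearest to that of CRABP2, among the 12040 genes compared (those with an NM accession and called well above background on every array), was LY6D. Its signal was 121 for control, 943 for 10 μM and 161 for 100 μM, and its distance from CRABP2 was 0.27 on the log2 scale. E2F7, CPA1, TMEM40 and GPC1 followed at distances of 0.66 to 0.68. LY6D and E2F7, like CRABP2, are among the genes that the study selected on these arrays. This likeness is one of array signals only, and rests on 3 arrays and on ratios that share 1 control array. No other member was both more than 2-fold from control and well above background on all arrays.

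Of 64 other genes of the retinoid pathway listed by role, 44 had a ratio over control at each dose. At the low dose 0 were more than 2-fold higher and 1 was lower, with a median log2 ratio of -0.07. At the high dose 3 were higher and 1 was lower, with a median of 0.27. Between the doses 1 was higher and 3 were lower at the low dose, with a median of -0.26. These counts stand beside the shares of all genes given above.

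Among the binding proteins and carriers, 6 of 8 were well above background on all arrays. TTR, which carries RBP4 in plasma, read 1109.9 in control cells, 1745 with 10 μM and 2013 with 100 μM, and was 2.15-fold higher than control at the high dose (log2 ratio 1.11, SD between spots 0.07). Its log2 ratio at the high dose fell to 0.82 under other scalings, below 2-fold. FABP5, a fatty acid binding protein that can also carry retinoic acid, read 1224, 1221 and 477. It was 2.16-fold lower than control at the high dose (log2 ratio -1.11, or -0.98 with normexp correction), and the low dose exceeded the high dose 2.07-fold. FABP5 has closely similar pseudogene copies, so its signal may not come from this gene alone.

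Among the genes of retinol and retinal interconversion, 9 of 17 were well above background on all arrays. ADH4, an alcohol dehydrogenase of liver that can oxidize retinol, read 474, 776 and 1022 and was 2.56-fold higher than control at the high dose (log2 ratio 1.36, SD 0.07). DHRS3, which turns retinal back into retinol and is induced by retinoic acid, read 2399, 3917 and 3512, with log2 ratios over control of 0.65 and 0.80 (SD 0.06). Of the 5 genes of storage, carotenoid cleavage and isomerization, 2 had a ratio. One of them, BCO1 (BCMO1 on the array), cleaves beta-carotene to retinal, and its signals were 23.9, 4.60 and 96.3. The signal at the low dose failed the background call and is a surrogate value. The control signal lay close to the lowest signal called well above background on that array (19.5). BCO1 was 4.79-fold higher than control at the high dose (log2 ratio 2.26, SD 0.30), and the high dose exceeded the low dose at least 5.27-fold. With normexp correction the log2 ratio over control was 1.16, and that of the low over the high dose was -1.29.

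None of the 3 other listed genes of retinoic acid synthesis (ALDH1A2, ALDH1A3 and ALDH8A1) and none of the 3 of its breakdown (CYP26A1, CYP26B1 and CYP26C1) was well above background on any array. LRAT, the enzyme that esterifies retinol for storage, was also not well above background on any array. Of all probes, 58.1% to 59.1% passed the call on an array. ALDH1A1, the member that also makes retinoic acid, was well above background on all arrays. CYP26A1, which retinoic acid induces in many cells, is listed at 5.49, 6.15 and 13.2, of which the first 2 are surrogate values.

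Of 9 genes listed as induced by retinoic acid, 6 were well above background on all arrays. Of the 6, 0 were more than 2-fold higher or lower in any comparison. The list leaves out induced genes treated as members or under other roles, among them RARB, DHRS3 and CYP26A1. The count therefore does not speak for all genes that retinoic acid induces. TGM2, a transglutaminase, read 826, 821 and 478. ASB2 read 27.6, 51.8 and 31.9, and its log2 ratio over control at the low dose was 0.85 (SD 0.28). Its control and high-dose signals lay near the lowest signals called well above background on those arrays (19.5 and 21.6). The other readable genes of the list were nearer to control at the low dose. Their log2 ratios were -0.07 for TGM2, -0.01 for RARRES2, -0.07 for PLAAT4 (RARRES3 on the array), -0.21 for HOXA5 and -0.09 for CDX1.

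All 11 nuclear receptors that pair with RXR were well above background on at least 1 array, and 10 on all. NR1H4, the bile acid receptor, read 1217, 548 and 946 and was 2.32-fold lower than control at the low dose (log2 ratio -1.21, SD 0.07), with a log2 ratio of -0.12 at the high dose (SD 0.07). NR1I3, the constitutive androstane receptor, read 23.4, 12.4 and 36.7. It failed the background call at the low dose and was at least 2.01-fold lower there than at the high dose, a bound that fell below 2-fold under other scalings. None of the 6 listed coregulators of nuclear receptors was more than 2-fold higher or lower in any comparison.

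**Figure D4:**
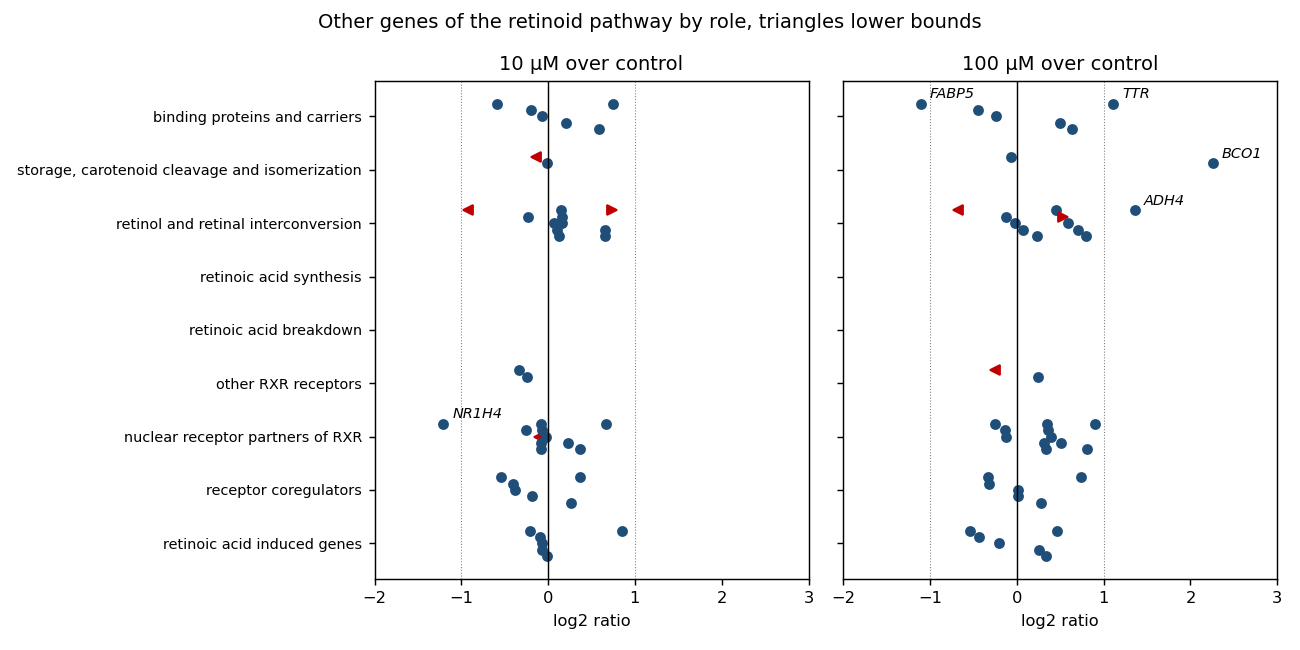
Log2 ratio over control at 10 μM (left) and 100 μM (right) for the other retinoid pathway genes by role, brightest probe, with circles for ratios measured on both arrays and triangles for bounds pointing away from 0. Genes more than 2-fold from control are named, which is NR1H4 at the low dose and FABP5, TTR, BCO1 and ADH4 at the high dose.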

How the data were processed

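Cy3-labeled HepG2 RNA was measured on Agilent arrays of 60-base probes, 1 color and 1 array per condition. Per the file headers the images were read with Agilent Feature Extraction 10.7.3.1. The authors deposited, for each spot, an intensity from which the software had removed a fitted background surface, with multiplicative detrending within the array, surrogate values for spots at background and no scaling between arrays, together with its mean and background intensity and its flags, which are 0 or 1. The deposited table of the series held the same intensities for all 44495 spots of each array (relative tolerance 1e-05). Positions of probes were taken from the files (hg18).

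Spots with an outlier flag of the software were dropped, log2 intensities were averaged over the spots of a probe, and 34118 of 34127 probes had a value on all arrays. Each array was set relative to its 75th percentile. A gene was read by its brightest probe, and the threshold was 2-fold in the brighter, detected direction. The number of arrays, not depth, limits the precision.

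The members and lists were chosen with earlier results of these data known. Genes named are the members at all probes, pathway genes past 2-fold in any comparison, and the 5 genes nearest to CRABP2. DHRS3, TGM2, ASB2, LRAT, ALDH1A2, ALDH1A3, ALDH8A1, CYP26A1, CYP26B1 and CYP26C1 are outside that rule and were picked with their values known, and the cell type markers come from lists of their own. RARRES2, PLAAT4, HOXA5 and CDX1 are outside it too and complete the readable genes of the list with TGM2 and ASB2. The ratios and calls were tested on simulated data. Alternatives were other scalings, normexp correction, other filters on dim and outlier spots, other probe rules, thresholds and the series table. Python 3.11.15, pandas 2.3.3, numpy 2.4.6, matplotlib 3.10.9, R 4.3.3 and limma 3.58.1 were used.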

Additional observations from a re-analysis of the deposited data

How the results depend on the processing

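No paired analysis was possible because a single array was made for each condition. Over 15 alternatives, 80 of 90 counts of members past 2-fold stayed within 1.5 times. Many of these were counts of lower members that were 0 in the main setting and stayed 0. The deposited series values equal the main ones and could not change any count or ratio. The 80 therefore overstates how stable the counts were. Higher at the low dose than control went from 2 to 1 (CRABP2) when probes had to be well above background on every array, where STRA6 cannot be read. Higher at the high dose went from 1 to 0 with those probes, with normexp background correction and at 3-fold, and to 2 at 1.5-fold. Higher at the low dose in the comparison of both doses went from 2 to 1 with those probes, with normexp and at 3-fold. At 1.5-fold, 3 members (RARG, RXRA and ALDH1A1) were lower at the low dose and 1 (RARG) at the high dose, in place of 0. No value past 2-fold changed sign. Of 297 member probe values, 90 moved by more than the SD between spots. The settings for the other pathway genes were chosen after seeing the data. Between the doses, 3 of these genes were lower at the low dose, but 1 (BCO1) without scaling, with median scaling and with spike-in scaling. The causes were not tested beyond these settings. The spread between spots was wider for dim than for bright probes, with an SD of 0.61 and 0.65 (log2) for the STRA6 probes in control cells and 0.24 for CRABP2.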
